A study of Mus musculus with 2 samples.

Results

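Conventional CD4 T cells were examined in droplet-based single-cell RNA-seq data of live, CD45-positive immune cells sorted from mouse tumours. The cells were chosen by their own RNA counts, one barcode at a time. A barcode had to hold 200 or more detected genes and 2 or more unique molecular identifiers (UMIs) of Cd3e, Cd3d and Cd3g together, the chains of the T cell receptor complex. It also needed 1 or more UMIs of Cd4 and Cd40lg together, 0 of Foxp3, Il2ra, Ikzf2, Cd8a, Cd8b1 and Trdc, at most 1 of Mki67 and Top2a together, and at most 1 of Csf1r and Csf3r together. The rule found 291 barcodes of 9296, of which 174 came from the placebo library and 117 from the E2 library. Because the rule is written in RNA counts, the levels of these rule genes describe the selection and are not findings.

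There were 2 libraries, and each group had 1. The mice were of strain C57BL6\J and all had been ovariectomised, so the ovaries were absent from both groups. One group then received placebo and the other E2, the usual abbreviation of estradiol. Nothing used here states the tumour type, the dose or time of treatment, the age of the mice or how many mice were pooled. With 1 library per group no test between the groups is possible. The values below therefore compare 2 libraries, and treatment, mouse and library preparation cannot be told apart. Every interval is a 95% interval for counting error only.

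Conventional CD4 T cells are the helper arm of the T cell response. They recognise peptides on MHC class II, receive a second signal through the receptor CD28, and help other cells through CD40 ligand and secreted cytokines such as interleukin 2. After activation they can take on helper programmes known by their regulators and cytokines: T-bet and interferon gamma in type 1 cells, GATA3 with interleukins 4 and 13 in type 2 cells, interleukin 17 in type 17 cells. They are distinct from regulatory T cells, which carry FOXP3 and the high-affinity interleukin 2 receptor and restrain responses.

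The placebo library held 3490 barcodes with 200 or more genes, with a median of 5158.5 UMIs, and the E2 library held 5765 with a median of 8108. The selected cells were sampled more evenly. Their median depth was 4143 UMIs and 1801 genes in placebo and 4240 UMIs and 1754 genes in E2, and their summed depth was 770900 and 584784 UMIs. A total of 95 barcode sequences occurred in both libraries, but 0 were selected in both.

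Of the 5 markers given for these cells, Cd4 and Cd40lg were used by the rule, so only Cd28, Tcf7 and Il2 were left to check the identity. Levels are given as CPM, the UMIs of a gene scaled to a common total of 1000000 over the selected cells of a library. Cd28, the costimulatory receptor, was at 529 CPM in placebo and at 434 CPM in E2. Tcf7, which encodes the transcription factor TCF1 of naive and memory T cells, was at 502 and 327 CPM. Il2 was at 73.9 and 65.0 CPM. After thinning each cell to 2000 UMIs, Cd28 was seen in 63.6% and 57.4% of the selected cells (83.3% and 77.8% without thinning) and in 0% of B cells in both libraries, and Tcf7 in 56.1% and 52.2% (78.7% and 69.2% without thinning) against 0.562% and 0%. Il2 was seen in 13.9% and 12.2% (22.4% and 24.8% without thinning), also against 0% of B cells. CD8 T cells of placebo and E2 held Cd28 at 365 and 353 CPM, Tcf7 at 344 and 341 CPM and Il2 at 44.9 and 61.4 CPM. These levels lay below those of the selected cells, except for Tcf7 in E2. The check thus sets the selected cells apart from B cells, but does not by itself tell them from CD8 T cells.

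The selected cells lay close to several thresholds of the rule. In placebo 57 cells and in E2 33 cells had exactly 1 UMI of Cd4 and Cd40lg together. A further 52 and 47 barcodes failed this term only, with 0 UMIs. Il2ra alone kept out 25 and 27 barcodes, of which 11 and 17 held exactly 1 UMI of it. Ikzf2 alone kept out 21 and 16, Cd8a and Cd8b1 kept out 31 and 11, and Foxp3 alone kept out 3 and 1. The libraries differed in which of the 2 entry genes brought cells in. In placebo 79 cells entered through Cd4 only, 28 through Cd40lg only and 67 through both, against 45, 36 and 36 in E2. Absence of Foxp3 UMIs in a cell of this depth does not show absence of the transcript. Of the 7 genes of the regulatory T marker list, Foxp3, Il2ra and Ikzf2 were at 0 by the rule, and the other 4 summed to 621 CPM in placebo and 504 CPM in E2. A UMI of Ctla4, Tnfrsf4, Tnfrsf9, Ccr8 or Ikzf4, genes shared by regulatory and activated T cells, was seen in 70.4% and 68.5% of the cells once the 11 barcodes described next were left out, against 3.35% and 4.69% of B cells. The part of regulatory T cells with unsampled Foxp3 in the results was not tested. A longer list of genes associated with regulatory T cells, which other T cells also express, gave 3 or more UMIs in 150 and 106 of the cells, and leaving those out left only 24 and 11.

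Some selected barcodes also carried RNA of another lineage, and this affects several results below. Of the 291 barcodes, 11 held 10 or more UMIs of a marker list of B, myeloid, fibroblast, endothelial, keratin-expressing, pigment or erythroid cells, 5 in placebo and 6 in E2. In placebo these were barcodes with 18 UMIs of the mast cell list, 83 and 129 of the conventional dendritic cell list, 45 of the monocyte and macrophage list, and 12 of the pigment cell list. The E2 barcodes held far more, with 1109 and 830 UMIs of the neutrophil list, 907, 1073 and 1481 of the dendritic cell list, and 12 of the endothelial list. The 11 barcodes held 4.33% of the members' UMIs in placebo and 13.3% in E2. Without them 169 and 111 cells remained. Then the monocyte and macrophage list was at 102 CPM in placebo and 211 CPM in E2, the conventional dendritic cell list at 97.6 and 136 CPM, the neutrophil list at 27.1 and 29.6 CPM, the B cell list at 74.6 and 63.1 CPM, and the type 2 innate lymphoid list at 536 and 706 CPM. The natural killer list summed to 0 and 3 UMIs. The part of these lists in the results was not tested. A doublet score marked 3 of the 5 and 3 of the 6. Values without the 11 barcodes stand beside many of the results, and the limit of 10 UMIs was chosen after seeing the data. Marker lists of other lymphocytes were not used to find such barcodes, and helper T cells also express some of their genes. Of all selected cells, 10 in placebo and 11 in E2 held 10 or more UMIs of the type 2 innate lymphoid list, and 7 and 12 held as many of the CD8 T list.

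**Figure D1:**
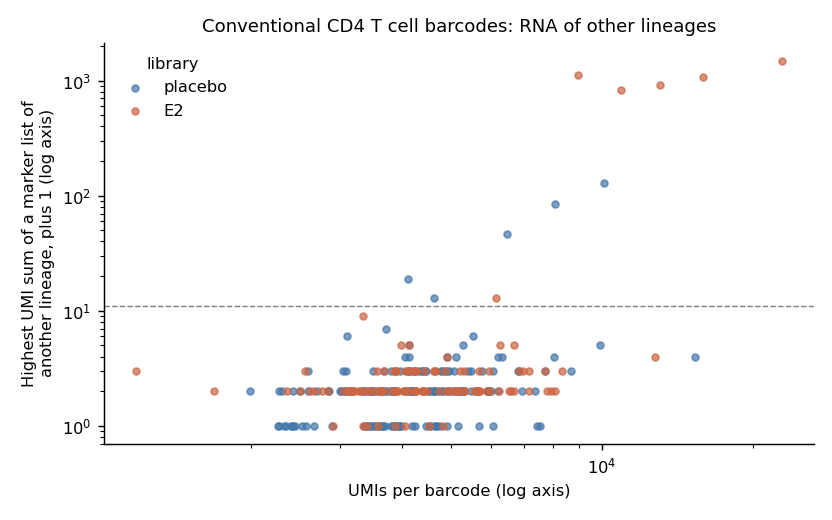
UMIs per selected barcode (x axis, log scale) against the highest UMI sum of any marker list of another lineage plus 1 (y axis, log scale), each point 1 of the 291 barcodes, coloured by library. The dashed line is at 10 UMIs; 11 barcodes lie above it, and the 5 highest, from 830 to 1481 UMIs, are all from the E2 library.

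Conventional CD4 T cells made up a smaller part of the E2 library. They were 174 of 3490 barcodes in placebo, 4.99% (4.29 to 5.76, Clopper-Pearson), and 117 of 5765 in E2, 2.03% (1.68 to 2.43). The share was 2.46-fold lower in E2 (interval 1.93 to 3.13). Among barcodes with 2 or more CD3 UMIs the difference was smaller, with 15.2% (13.2 to 17.4) in placebo and 11.9% (9.90 to 14.04) in E2, a ratio of 1.28 (1.01 to 1.63). Among CD3 barcodes that also held Cd4 or Cd40lg, they were 28.5% (25.0 to 32.3) and 25.1% (21.2 to 29.3), and the interval of the ratio, 0.894 to 1.45, included 1. Regulatory T cells were 6.85% and 2.62% of all barcodes, 2.61-fold lower in E2 (2.12 to 3.23), and CD8 T cells 4.44% and 1.77%, 2.51-fold lower (1.94 to 3.26). The intervals of the 3 T cell classes overlapped, so no difference in fold between them was detectable at this depth. A share among sorted CD45-positive cells depends on every other cell type in the sort. Fewer T cells and more of the other cells cannot be told apart from it.

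**Figure D2:**
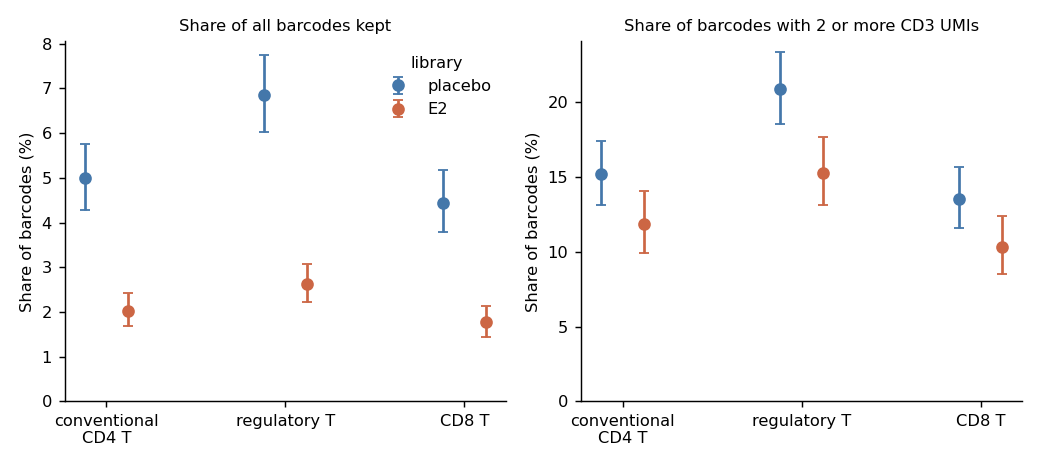
Share of barcodes in % (y axis) of conventional CD4, regulatory and CD8 T cells in the placebo and E2 libraries, of all barcodes kept on the left and of CD3 barcodes on the right; bars are Clopper-Pearson 95% intervals for counting error. For conventional CD4 T cells the shares of all barcodes were 4.99% and 2.03%, and those of CD3 barcodes 15.2% and 11.9%.

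Beside regulatory T cells of the same libraries, selected by Foxp3 UMIs, the 8 genes that ranked highest in the conventional cells were Tcf7, Tnfsf8, Bcl2, Pde7a, Ramp3, Evl, Ehd3 and Il13. Tcf7 was at 502 CPM in conventional and 19.3 CPM in regulatory cells of placebo, and at 327 and 3.69 CPM in E2. Bcl2, which protects from apoptosis, was at 256 against 17.01 CPM in placebo and at 299 against 4.92 CPM in E2. Tnfsf8, encoding CD30 ligand, was at 141 against 0.773 CPM and at 159 against 2.46 CPM. The type 2 cytokine gene Il13 was at 54.5 against 0.773 CPM and at 92.3 against 6.15 CPM. Ramp3, a receptor-activity modifying protein, was at 196 against 21.6 CPM and at 137 against 13.5 CPM. Pde7a, a phosphodiesterase gene, was at 202 against 18.6 CPM and at 159 against 13.5 CPM. Other T cell genes lay closer together. The interleukin 7 receptor gene Il7r was at 874 against 804 CPM and at 727 against 588 CPM, and Icos was lower in the conventional cells, at 1109 against 1544 CPM and at 811 against 1326 CPM.

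Outside the rule's own genes, those that ranked lowest beside regulatory cells were Gzmb, Klrg1, Tnfrsf9, Neb and Itgb8. The regulatory cells were selected with no limit on Il2ra or Ikzf2, whereas the conventional cells had 0 UMIs of both. Genes that vary together with Il2ra or Ikzf2 may therefore differ by the selection, and its part was not tested. Gzmb, the protease granzyme B, was at 3.89 CPM against 889 in regulatory cells of placebo and at 17.1 against 859 CPM in E2. Tnfrsf9, encoding 4-1BB, was at 24.6 against 816 CPM and at 15.4 against 424 CPM. Neb was at 2.59 against 219 CPM and at 6.84 against 183 CPM, and Itgb8, an integrin chain, was at 0 UMIs in conventional cells of both libraries against 136 and 88.6 CPM. Klrg1 was at 0 UMIs in conventional cells of placebo against 210 CPM in regulatory cells, and at 1.71 against 193 CPM in E2. The checkpoint receptor gene Ctla4 was lower but present, at 269 against 2108 CPM in placebo and 171 against 1854 CPM in E2. Tnfrsf4, encoding OX40, was at 265 against 1361 CPM and at 202 against 1377 CPM.

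CD8 T cells, also selected with no limit on Il2ra or Ikzf2, differed in another set of genes. Tnfrsf4 was at 16.98 CPM in CD8 cells of placebo and 19.2 CPM in E2, below the conventional cells in both. Ccr4, a chemokine receptor of skin-homing and type 2 helper cells, was at 75.2 CPM in conventional against 6.06 CPM in CD8 cells of placebo and at 73.5 against 3.84 CPM in E2. Tnfsf11, encoding RANK ligand, was at 130 against 19.4 CPM and at 111 against 7.67 CPM. The chemokine gene Ccl5 was at 350 against 4948 CPM in placebo and at 520 against 4391 CPM in E2, and the cytotoxic granule gene Nkg7 was at 143 against 1144 CPM and at 144 against 1414 CPM. Gzma, granzyme A, had 0 UMIs in the conventional cells of both libraries, against 154 and 86.3 CPM in CD8 cells.

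The share of cells with a UMI gave the same picture at a fixed depth of 2000 UMIs per cell, with the 11 barcodes left out. This depth kept 168 cells in placebo and 109 in E2, leaving out 1 and 2 shallower cells. Tcf7 was seen in 57.1% of conventional cells in placebo and 53.2% in E2 (78.7% and 68.5% without thinning), against 1.28% and 0.685% of regulatory cells. B cells, which should lack Tcf7 and served to measure free RNA, gave 0.562% and 0%, with median depths of 3554 and 3330 UMIs. Il2 was seen in 14.3% and 11.9% of conventional cells (22.5% and 24.3% without thinning), against 0% of B cells in both libraries. Tnfrsf4 was seen in 27.4% and 32.1% (46.7% and 44.1%), against 1.97% and 3.09% of CD8 T cells.

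**Figure D3:**
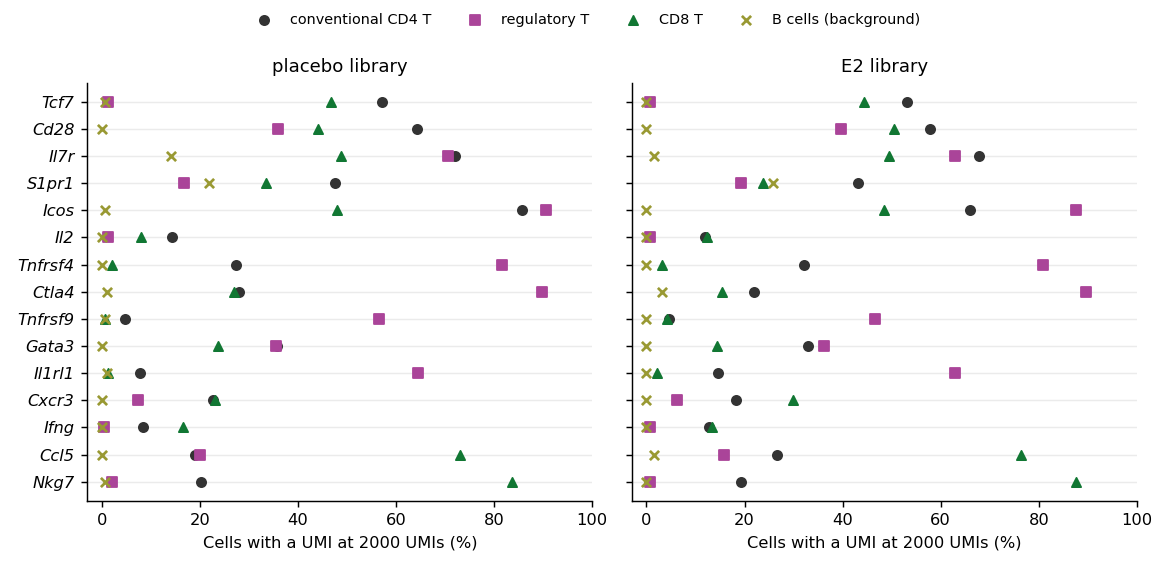
Share of cells with 1 or more UMIs of each gene after thinning each cell to 2000 UMIs (x axis, %), in the placebo library on the left and the E2 library on the right, for conventional CD4 T cells without the 11 barcodes, regulatory T cells, CD8 T cells and B cells as background. Tcf7 separates conventional from regulatory T cells, at 57.1% against 1.28% in placebo, and Tnfrsf4 separates them from CD8 T cells, at 27.4% against 1.97%.

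Within the conventional cells, genes of type 1 and of type 2 helper cells were each seen in a part of the cells. The gene sets were chosen after seeing the data and are given as cells with a UMI, without the 11 barcodes and without thinning. A type 1 gene (Ifng, Tbx21, Cxcr3, Ccl5 or Nkg7) was seen in 91 of 169 placebo cells, 53.8% (46.0 to 61.5), and in 59 of 111 E2 cells, 53.2% (43.4 to 62.7). A type 2 gene (Il4, Il5, Il13 or Il1rl1) was seen in 24.9% (18.5 to 32.1) and 26.1% (18.2 to 35.3). The type 1 set holds its regulator gene Tbx21, but the type 2 set leaves out its regulator gene Gata3. Gata3 alone was seen in 94 of 169 placebo cells and 55 of 111 E2 cells. The shares of the 2 sets therefore do not show which programme was more common. B cells, at median depths of 3554 and 3330 UMIs, gave 1.12% and 7.81% for the type 1 set and 1.12% and 0% for the type 2 set, and macrophages, at median depths of 9808 and 10189 UMIs, gave 4.50% and 6.59% and 6.54% and 9.97%. Type 17 genes were seen in 6.51% and 5.41% of conventional cells. That was not above the 8.38% and 15.6% of B cells, but above the 1.07% and 0.412% of macrophages. Whether B cells express genes of this set themselves was not tested, so their share may not measure free RNA. Follicular helper genes (Bcl6, Cxcr5, Il21 or Pdcd1) were seen in 10.1% and 8.11%, below the 37.4% and 43.8% of B cells, which also express some of them. The type 17 and follicular shares of conventional cells are therefore read neither as expression nor as its absence. For the type 1 and type 2 sets the intervals of the libraries overlapped, and no difference was detectable at this depth. A cell could hold genes of several sets. Of the type 2 cells, 15 of 42 in placebo and 7 of 29 in E2 also held a type 1 gene.

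Pairs of genes were also counted. B cells gave 0% for Gata3 and Il13 in both libraries and 0.559% and 1.56% for Ccl5 without thinning. Gata3, the type 2 regulator, was seen in 14 of the 15 cells with Il13 in placebo and in 6 of 7 in E2, against 55.6% and 49.5% of all cells. Il1rl1, encoding the interleukin 33 receptor ST2, and Ccl5 were seen together in 1 of 17 Il1rl1 cells in placebo and 0 of 18 in E2, whereas 27.2% and 29.7% of all cells held Ccl5. Cxcr3, a chemokine receptor of type 1 cells, was seen in 15 of 20 cells with Ifng in placebo and 13 of 21 in E2, against 31.4% and 33.3% of all cells. Ly6c2 and Ccl5 were seen together in 7 of 10 and 11 of 13 Ly6c2 cells. These are counts over cells of 1 library each and carry no test.

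Variable segments of the receptor were sparsely read, as is usual at the 3′ end. A Trbv segment was seen in 16 of 169 placebo cells and 21 of 111 E2 cells. The commonest was Trbv12-2 in both, in 3 of the 16 cells in placebo and 9 of the 21 in E2. No cell held more than 1 Trbv segment. Whether the cells that share Trbv12-2 are of 1 clone was not tested.

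The comparison of the libraries used UMIs summed over the selected cells and scaled to CPM, with ratios on the log2((CPM in E2 + 10)/(CPM in placebo + 10)) scale. A gene counted as measured with 20 or more UMIs over both libraries, and as higher or lower when it differed at least 1.5-fold on this scale. Of 6777 measured genes, 300 were higher in E2, 4.43%, and 683 were lower, 10.1%, with a median log2 ratio of -0.10. Without the 11 barcodes 6481 genes were measured, of which 229 were higher, 3.53%, and 597 lower, 9.21%, with a median of -0.07. Of these, 151 were higher and 500 lower in both comparisons. Counting error alone can take a gene with few UMIs past the limit, so these counts are not numbers of changed genes. Among genes with 50 or more UMIs, with all barcodes, 106 were higher and 290 lower. A list of genes with many UMIs can have fewer genes past the limit for this reason alone. A median-of-ratios scaling, which moves the median of all measured genes to 0.00075, gave 429 higher and 446 lower genes, so the excess of lower genes depends on the scaling. Values below are to be read against the -0.10 of all genes.

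The 12 genes with the highest ratio over all 291 barcodes were genes of neutrophils and antigen-presenting cells. S100a9 was at 2.59 CPM in placebo and 1578 CPM in E2, S100a8 at 7.78 and 1399 CPM, and Il1b at 16.9 and 510 CPM. H2-Ab1, an MHC class II gene, was at 64.9 and 1284 CPM. Of the 127 E2 UMIs of the chemokine gene Ccl3, 100% lay in 1 barcode. Without the 11 barcodes S100a9 was at 2.71 and 11.8 CPM and H2-Ab1 at 21.7 and 31.6 CPM, and 0 of these 12 genes stayed among the 12 highest. Most of the excess of S100a9 and H2-Ab1 thus lay in the 11 barcodes, though S100a9 kept a log2 ratio of 0.78 without them. These barcodes were picked by marker lists that hold S100a8, S100a9, Retnlg, H2-Ab1, H2-Eb1 and Cd14. A fall of these genes on leaving them out was therefore fixed by the choice.

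Without those barcodes, the 12 highest genes were Ccl1, Tff1, Bambi, Areg, Eif4e, Plp2, Med28, Fkbp2, Tsnax, Tbc1d4, Usp12 and Trim27. Areg, which encodes the tissue-repair ligand amphiregulin, was at 44.7 CPM in placebo and 144 CPM in E2, but 39.7% of its E2 UMIs lay in 1 cell. Ccl1 went from 5.42 to 67.1 CPM with 85.3% of its E2 UMIs in 1 cell. Eif4e, the cap-binding translation factor, was at 29.8 and 75.0 CPM. Plp2, a membrane protein gene, was at 33.9 and 82.9 CPM. Med28, a subunit of the Mediator complex, was at 59.7 and 126 CPM, a ratio of 2.05 (1.39 to 3.05) with all barcodes.

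The lowest genes in E2 depended less on those barcodes, and 9 of 12 stayed among the 12 lowest without them. Rgs16, a regulator of G-protein signalling in activated T cells, had 43 UMIs in placebo and 4 in E2, or 55.8 and 6.84 CPM, 8.15-fold lower (2.96 to 31.3). Sgk1, a kinase induced by salt and steroid signals, was at 93.4 and 35.9 CPM, 2.60-fold lower (1.58 to 4.45). Cct6a, a subunit of the chaperonin that folds actin and tubulin, was at 442 and 190 CPM, 2.33-fold lower (1.88 to 2.91). Ilk, integrin-linked kinase, was at 72.6 and 29.1 CPM, 2.50-fold lower (1.43 to 4.59). The noncoding RNA Rn7sk was at 148 and 27.4 CPM, with 50.9% of its placebo UMIs in 1 cell.

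Gene lists were then described by the number of measured members on each side and by their median, to be read beside -0.10 for all measured genes, or -0.07 without the 11 barcodes. The lists with the lowest medians without the 11 barcodes were inhibitory receptors at -0.36, hypoxia and glycolysis at -0.30, activation and early response at -0.23, cytotoxic effectors at -0.21 and CD4 helper identity at -0.20. The highest were T cell cytokines at 0.37, proliferation genes at 0.28 and cytosolic ribosomal proteins at 0.22. Cytotoxic effectors stood at 0.25 with all barcodes, from 10 measured genes, against 7 without the 11. The 11 barcodes held nearly all Ccl3 and Ccl4 UMIs of E2. Without them both genes fell under 20 UMIs and left the list, so the 2 medians are not of the same genes.

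**Figure D4:**
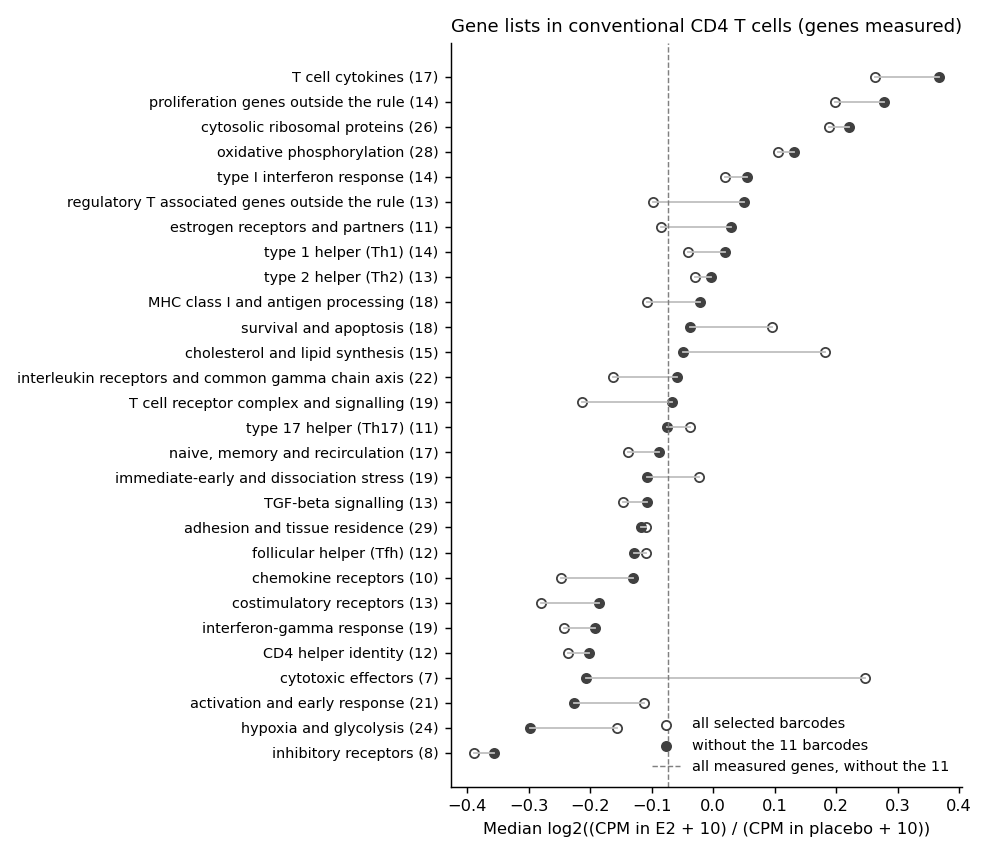
Median log2 ratio of E2 over placebo (x axis) of each gene list in conventional CD4 T cells, with the number of genes measured without the 11 barcodes in brackets; open circles are all 291 barcodes, filled circles leave out the 11 barcodes, and the dashed line is the median of all measured genes without them. The cytotoxic effector list was at 0.25 from 10 genes with all barcodes and at -0.21 from 7 genes without the 11. Inhibitory receptors were at -0.39 and -0.36, from 8 genes each.

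Interferon gamma signals through its receptor to induce the transcription factor IRF1 and families of GTPases that act against intracellular pathogens. Of 20 measured genes of the interferon-gamma response list, 15 had a ratio below 1 in E2 and 5 above. The 1.5-fold limit was passed downwards by 7, or 35.0% against 10.1% of all measured genes, and upwards by 2, or 10.0% against 4.43%. Without the 11 barcodes 6 of 19 were lower and 1 higher, 31.6% and 5.26% against 9.21% and 3.53%. The list median was -0.24, and -0.19 without the barcodes. Regulatory T cells of the same libraries had a median of -0.51 from 23 measured genes, and CD8 T cells of -0.09 from 19. No difference between the cell types was tested.

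The genes of this list that were lower included Irf1 and a checkpoint ligand. Irf1 had 178 UMIs in placebo and 81 in E2, or 231 and 139 CPM, 1.67-fold lower (1.27 to 2.20). Its CPM intervals in the libraries did not overlap, and without the 11 barcodes its log2 ratio was -0.64. Cd274, which encodes the checkpoint ligand PD-L1, was at 76.5 and 30.8 CPM, 2.49-fold lower (1.45 to 4.48). At 2000 UMIs per cell, without the 11 barcodes, Irf1 was seen in 30.4% of placebo cells and 24.8% of E2 cells (52.7% and 40.5% without thinning), shares whose intervals overlapped at that depth.

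Among the GTPases, Gbp2 was at 45.4 CPM in placebo and 13.7 CPM in E2, 3.32-fold lower (1.51 to 8.28), with a log2 ratio of -1.53 without the 11 barcodes. Gbp7 was at 81.7 and 46.2 CPM, Gbp8 at 55.8 and 32.5 CPM, and Irgm2 at 24.6 and 6.84 CPM with 19 and 4 UMIs. The interval of the ratio for Gbp8, 0.979 to 3.12, included 1, and Gbp7 and Gbp8 were under 1.5-fold without the 11 barcodes, with log2 ratios of -0.55 and -0.52. Near-identical guanylate-binding genes can share reads, so values of single Gbp genes are uncertain. Other genes of the list lay close to equality. The receptor chain Ifngr1 was at 912 and 903 CPM, the immunoproteasome subunit Psmb8 at 497 and 559 CPM, and the feedback inhibitor Socs1 at 332 and 292 CPM. Cxcl10 and Irf8 were higher in E2, at 11.7 and 30.8 CPM and at 7.78 and 29.1 CPM, from 18 and 17 E2 UMIs of which 55.6% and 47.1% lay in 1 cell. Ifng itself was at 51.9 CPM in placebo and 82.1 CPM in E2, 1.58-fold higher (1.02 to 2.47).

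**Figure D5:**
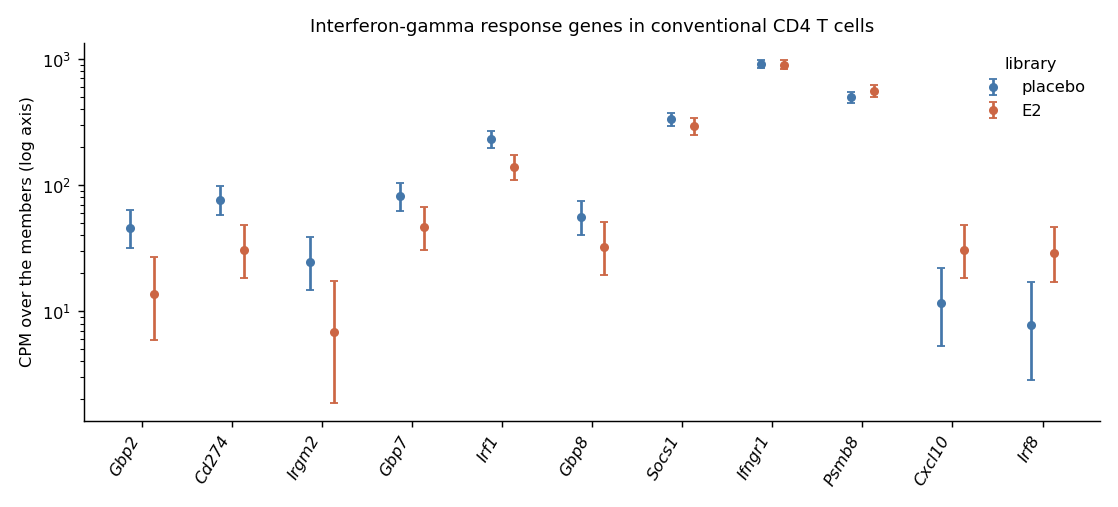
CPM over the selected cells (y axis, log scale) of 11 interferon-gamma response genes described in the text, in the placebo and E2 libraries, ordered by their ratio, with exact Poisson 95% intervals for counting error. Irf1 lies lower in E2, at 139 against 231 CPM, whereas Ifngr1 lies at 903 against 912 CPM.

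Promoters of this list were searched for the gamma-activated sequence motif TTCNNNGAA, which reads the same on both strands, in the 250 bases before each start site of RefSeq (GRCm38.p6). The 14 measured genes found there had 16 windows, of which 6 held it, 37.5%, against 7.02% of all 32851 windows. Of the genes lower in E2, Irf1, Gbp7 and Irgm2 held it, and Gbp2 and Cd274 did not. Of the genes that were not lower, Irf8, Igtp and Psmb8 held it too. A match of letters is not a measured binding site. The 3 promoters that held it among the lower genes are shown 5′ to 3′ on the strand of the gene, with the motif in capitals, for Irf1 at chr11:53769764-53770013 (plus strand), Gbp7 at chr3:142530086-142530335 (plus strand) and Irgm2 at chr11:58214727-58214976 (plus strand).
Irf1: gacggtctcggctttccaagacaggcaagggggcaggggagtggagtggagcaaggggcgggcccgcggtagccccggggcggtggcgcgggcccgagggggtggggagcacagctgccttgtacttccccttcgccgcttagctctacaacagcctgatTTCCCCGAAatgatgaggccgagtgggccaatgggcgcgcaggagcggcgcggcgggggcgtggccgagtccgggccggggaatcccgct
Gbp7: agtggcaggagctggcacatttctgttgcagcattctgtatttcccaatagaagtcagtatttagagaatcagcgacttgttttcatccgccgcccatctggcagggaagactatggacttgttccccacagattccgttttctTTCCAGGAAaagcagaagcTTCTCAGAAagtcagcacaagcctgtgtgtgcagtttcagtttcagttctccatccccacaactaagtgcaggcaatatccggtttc
Irgm2: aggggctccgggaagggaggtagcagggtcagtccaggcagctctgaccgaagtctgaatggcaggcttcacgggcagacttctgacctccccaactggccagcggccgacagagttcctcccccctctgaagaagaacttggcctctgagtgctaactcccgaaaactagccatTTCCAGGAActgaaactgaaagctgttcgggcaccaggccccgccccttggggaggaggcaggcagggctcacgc
The Irf1 window held the motif 1 time, starting 90 bases before the start site. The Gbp7 window held it at 106 and 87 bases before the start, and the Irgm2 window at 75 bases. Irf1 has a second RefSeq start, whose window held no match.

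Some genes of glycolysis and the hypoxia response were lower in E2. Of 25 measured genes, 20 had a ratio below 1, as did 4089 of all 6777, with a median of -0.16 (0.069 among the 24 and 11 cells with fewer than 3 UMIs of genes associated with regulatory T cells). The limit was passed downwards by 6, or 24.0% against 10.1% of all measured genes. It was passed upwards by 1, or 4% against 4.43%. With the 11 barcodes left out it was passed downwards by 8 of 24, or 33.3% against 9.21%, with 20 of 24 below 1, as were 3772 of all 6481, and a median of -0.30. Hif1a, a transcription factor gene of the hypoxia response, had 256 and 121 UMIs, or 332 and 207 CPM, 1.60-fold lower (1.29 to 2.01). Without the 11 barcodes Hif1a lay just inside the limit, at a log2 ratio of -0.58. Pfkl, the liver-type phosphofructokinase of glycolysis, was at 54.5 and 17.1 CPM, 3.19-fold lower (1.57 to 7.12). Pkm, pyruvate kinase, was at 385 and 253 CPM, 1.52-fold lower (1.25 to 1.87). Tpi1 was at 117 and 73.5 CPM. Pgk1 had 22 and 4 UMIs. Other enzymes of the same pathway differed less, with Ldha at 625 and 610 CPM, Gapdh at 946 and 860 CPM and Eno1 at 279 and 267 CPM. Nuclear genes of oxidative phosphorylation lay on the other side in small steps, with 24 of 28 above 1, as were 2688 of all 6777. Their median was 0.10 (0.13 without the 11 barcodes), and 0 passed the limit upwards, against 4.43% of all measured genes. Cytosolic ribosomal protein genes had 22 of 26 above 1 and a median of 0.19 (0.22 without the 11 barcodes). Of them 0 passed the limit, against 4.43% of all measured genes upwards and 10.1% downwards. Both lists kept positive medians in regulatory T cells, at 0.14 and 0.31, and in CD8 T cells, at 0.17 and 0.14.

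Counts of inhibitory and costimulatory receptors past the limit were small, from 8 and 13 measured genes. Of 8 measured inhibitory receptor genes 7 were below 1, beside 4089 of all 6777 measured genes, with a median of -0.39, and 2 passed the limit downwards, 25.0% against 10.1%. Leaving out the 11 barcodes, 1 of 8 passed it, 12.5% against 9.21%, with a median of -0.36. The median was 0.0071 among the 24 and 11 cells with fewer than 3 UMIs of genes associated with regulatory T cells. Ctla4 was at 269 and 171 CPM, 1.57-fold lower (1.23 to 2.01), but was within 1.5-fold without the 11 barcodes, at 268 and 193 CPM. Cd101 had 25 and 10 UMIs. Nt5e, encoding the ectonucleotidase CD73, was at 163 and 109 CPM, 1.49-fold lower (1.10 to 2.05). Pdcd1, encoding PD-1, was at 32.4 and 23.9 CPM, and Lag3 had 3 and 0 UMIs. Of 13 costimulatory receptor genes 11 were below 1, beside 4089 of all 6777, with a median of -0.28. Without the 11 barcodes 10 of 13 were, beside 3772 of all 6481, with a median of -0.18. In both cases 0 passed the limit either way. The shares of all measured genes were 4.43% upwards and 10.1% downwards, and 3.53% and 9.21% without the 11 barcodes. With 13 genes a count of 0 lies near these shares. Icos was at 1109 and 811 CPM, 1.37-fold lower (1.22 to 1.53), and was seen in 85.7% (79.5 to 90.6) of placebo and 66.1% (56.4 to 74.9) of E2 cells at 2000 UMIs without the 11 barcodes (93.5% and 84.7% without thinning), against 0.562% and 0% of B cells.

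Genes of tissue residence and adhesion differed in both directions. Of 30 measured genes 17 were below 1, 5 passed the limit downwards and 3 upwards, 16.7% and 10.0% against 10.1% and 4.43% of all measured genes. With those 11 barcodes left out 4 and 1 of 29 did, 13.8% and 3.45% against 9.21% and 3.53%. Rgs1 and Rgs2, regulators of G-protein signalling that dampen chemokine responses, had many counts. Rgs1 was at 894 and 515 CPM, 1.74-fold lower (1.51 to 1.99), and Rgs2 at 885 and 492 CPM, 1.80-fold lower (1.56 to 2.07). Their log2 ratios without the 11 barcodes were -0.67 and -0.71. Itgae, the CD103 integrin chain that anchors T cells to epithelium, stood at 182 CPM in placebo and 108 CPM in E2, 1.69-fold lower (1.24 to 2.31), and was seen in 28.0% and 14.7% of cells at 2000 UMIs without the 11 barcodes (35.5% and 20.7% without thinning). Itga4, an integrin chain of homing to inflamed tissue, was at 80.4 and 156 CPM, 1.93-fold higher (1.39 to 2.72). Anxa2 and S100a11 were also higher, but passed the limit with the 11 barcodes only.

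Satb1, a chromatin organiser of naive T cells, was at 323 and 186 CPM, 1.73-fold lower (1.38 to 2.19), and Tcf7 was 1.54-fold lower (1.29 to 1.84). Both were within 1.5-fold without the 11 barcodes, with log2 ratios of -0.58 and -0.52. They were the only members of the naive and recirculation list past the limit with all barcodes, 2 of 17 or 11.8% against 10.1%. Without the 11, 0 of 17 passed it, against 3.53% of all measured genes upwards and 9.21% downwards. The list also held S1pr1, the exit receptor from tissue and lymph node, at 397 and 344 CPM, and Klf2, its regulator, at 324 and 311 CPM.

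T cell cytokines were the list with the highest median, 0.26 with all barcodes and 0.37 without the 11. Of 17 genes measured without them 11 were above 1, and 5 passed the limit upwards, 29.4% against 3.53%. Ccl5 was at 350 CPM in placebo and 520 CPM in E2, 1.48-fold higher (1.26 to 1.76). Il13 was at 54.5 and 92.3 CPM, 1.69-fold higher (1.11 to 2.60), but 38.9% of its E2 UMIs lay in 1 cell and fewer E2 cells held it, 7 of 111 against 15 of 169. Ifng was seen in 21 of 111 E2 cells and 20 of 169 placebo cells. Il4 was at 51.9 and 34.2 CPM, on the lower side. Il17a and Il17f, the type 17 cytokine genes, had 17 and 13 UMIs in placebo against 4 and 0 in E2, but 64.7% and 76.9% of the placebo UMIs lay in 1 cell. Il2 was at 73.9 and 65.0 CPM, and the interval of its ratio, 0.742 to 1.76, included 1. Differences of this list rest on few cells per gene. The median was -0.43 among the 24 and 11 cells with fewer than 3 UMIs of genes associated with regulatory T cells. The CD8 T marker list, which holds Ccl5, was at 362 and 608 CPM without the 11 barcodes with Cd8a and Cd8b1 at 0 by the rule, and its part in the result was not tested.

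Of the regulators of the helper programmes, Gata3 was at 294 and 248 CPM and Maf, a regulator of type 2 and follicular cells, at 256 and 221 CPM. Tbx21, encoding T-bet, had 29 and 12 UMIs, or 37.6 and 20.5 CPM, past the limit downwards with all barcodes, at a log2 ratio of -0.64, but not without the 11, at -0.51. The type 1 list had a median of -0.04. With all barcodes 2 of 15 genes passed the limit in each direction, 13.3% each, against 4.43% of all measured genes upwards and 10.1% downwards. Without the 11 barcodes 3 of 14 passed it upwards, 21.4% against 3.53%, and 0 downwards, against 9.21%. The type 2 list had a median of -0.03 with 3 of 13 past the limit upwards, 23.1% against 4.43%, or against 3.53% without the 11 barcodes, where the count was also 3 of 13. Those 3 were Il13, Areg and Il17rb, the last with 11 and 16 UMIs, and 38.9% of the E2 UMIs of Il13 and 39.7% of those of Areg lay in 1 cell. The type 2 innate lymphoid marker list, higher in E2 as given above, shares genes with this list, and its part was not tested. The type 17 list had a median of -0.04, with 3 of 12 past the limit upwards, 25.0% against 4.43%, and 3 of 11 without the 11 barcodes, 27.3% against 3.53%. Il17a passed it downwards. The follicular list stood at -0.11 with 0 of 12 past the limit, against 4.43% of all measured genes upwards and 10.1% downwards. Within the type 17 list Ahr, the aryl hydrocarbon receptor, was at 25.9 and 77.0 CPM, 2.97-fold higher (1.72 to 5.30) and at 27.1 and 57.2 CPM without the 11 barcodes. Tmem176a and Tmem176b, neighbouring genes of ion channels, were at 68.8 and 120 CPM and at 84.3 and 142 CPM, 1.74-fold (1.20 to 2.54) and 1.68-fold (1.20 to 2.37) higher. Of the cytotoxic list Ctsw, cathepsin W, was at 239 and 113 CPM, 2.11-fold lower (1.59 to 2.85). Of the type I interferon list, with a median of 0.02, Ifi27l2a was at 375 and 681 CPM, 1.82-fold higher (1.56 to 2.12), whereas Ddx58, the RNA sensor RIG-I, was at 59.7 and 27.4 CPM.

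Transcripts of the estrogen receptors were not detected in these cells. Esr1, Esr2 and Gper1 had 0 UMIs in both libraries, which allows a share of up to 1.79% of cells with an Esr1 UMI in placebo and 2.75% in E2 at 2000 UMIs without the 11 barcodes. The estrogen-induced genes Pgr and Greb1 also had 0 UMIs. Macrophages of the same libraries gave Esr1 in 5 of 919 and 24 of 2390 cells. These shares lie under the floors above, so they do not show that Esr1 is lower in conventional CD4 T cells. The list of estrogen receptors and their partners, which include co-regulators and other nuclear receptors, had 11 measured genes and a median of -0.09. Of these 0 passed the limit in either direction, against 4.43% of all measured genes upwards and 10.1% downwards. With 11 genes a count of 0 lies near these shares. Nr3c1, the glucocorticoid receptor, was at 314 and 260 CPM. Proliferation genes outside the rule had a median of 0.20. H2afz, a histone variant gene, was at 617 and 997 CPM with all barcodes and at 614 and 860 CPM without the 11, and Pcna, the DNA polymerase clamp, at 127 and 75.2 CPM.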

How the data were processed

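Single-cell RNA-seq (10x, 3′) was analysed for 2 libraries of sorted CD45-positive tumour cells, 1 per group. The deposited matrices hold raw UMI counts per gene and barcode. The submitters' processing notes name Cell Ranger 3.1.0 and mm10, and no other upstream setting is stated. The groups were taken from the labels. The cells and the 28 gene lists and 22 marker lists were chosen with earlier results of these data known.

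Barcodes with 200 or more genes were kept, with no further filter, and the rule on raw UMIs was applied. UMIs were summed over the selected cells of a library and divided by their total. Of 47730 features, 47310 matched the annotation, and 3 list symbols were not found. Genes were named by a rule: those of the rule and markers, members of the lists, the 12 highest and 12 lowest log2 ratios among genes with 50 or more CPM in a library and 30 or more UMIs over both (ribosomal, mitochondrial, receptor and immunoglobulin segments and unnamed models left out), and 8 each way beside other T cells. Pairs of genes and helper sets were chosen after their values were seen. Ratio intervals are exact conditional binomial, shares Clopper-Pearson, CPM exact Poisson, and the floor of a share is 3 cells. The libraries had 24545595 and 52628133 UMIs. Doublets were scored with scanpy 1.11.5, which marked 109 and 289 barcodes, and were kept. Other tools were python 3.11.15, numpy 2.4.6, scipy 1.17.1, pandas 2.3.3 and matplotlib 3.10.9. The procedure was tested on simulated data. Results were recomputed under 14 other settings, and under 1 more that was chosen after seeing the data.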

Additional observations from a re-analysis of the deposited data

Results flagged for a closer look

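The T cell cytokine list had a median log2 ratio of E2 over placebo of 0.26 in conventional CD4 T cells. It was -0.43 in regulatory T cells and -0.23 in CD8 T cells, the opposite side in both. These medians came from 19, 11 and 17 measured genes, so not from the same genes. Without the 11 barcodes with RNA of another lineage the median of conventional cells was 0.37, from 17 genes. It was -0.43 among the 24 and 11 conventional cells with fewer than 3 UMIs of genes associated with regulatory T cells. Cytotoxic effectors stood at 0.25 in conventional CD4 T cells, from 10 measured genes, and at -0.43 in regulatory T cells, from 7. Without the 11 barcodes they were at -0.21 in conventional cells, from 7 genes, on the same side as the regulatory T cells. Both medians of regulatory T cells equal the ratio of the single gene Ccl4, which is in both lists. With 1 library per group the differences between cell types were not tested.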

How the results depend on the processing

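No paired analysis was possible because each group had 1 library, and for the same reason no replicate could be left out. The share of conventional CD4 T cells stayed lower in E2 under each of the 7 alternatives that change the cells (ratio of E2 over placebo 0.28 to 0.43 of all barcodes, 0.53 to 0.83 of CD3 barcodes), and the interferon-gamma list median stayed below 0 in 15 of 15, from -0.49 to -0.13. Where a value moved, the cause was not tested.

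The numbers of genes at least 1.5-fold higher and lower were 731 and 1156 with 1 or more UMIs, 106 and 290 with 50 or more, 478 and 1067 with a pseudocount of 1 CPM, and 83 and 51 with 50 CPM. A median-of-ratios factor gave 429 and 446.

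List medians that moved or changed sign, and log2 ratios of named genes that changed sign, were as follows. Over all settings, 136 further ratios of named genes moved beyond the interval of the reported value and 604 did not. Without the 11 barcodes, cytotoxic effectors were at -0.21, cholesterol synthesis at -0.049, Ccl3 at -0.49, Ccl4 at -0.48 and Cxcl3 at -0.18. Without the highest doublet scores, cytotoxic effectors were at -0.17, Ccl3 at -0.49, Ccl4 at -0.51 and Cxcl3 at -0.18. Without cells holding any of 9 genes of other lineages, inhibitory receptors were at -0.67, type 17 at 0.23, cytotoxic effectors at -0.040, survival at -0.13, cholesterol synthesis at -0.16, Ccl3 at -0.40, Ccl4 at -0.52 and Cxcl3 at -0.22. With 2 or more UMIs of Cd4 and Cd40lg, type 17 was at 0.19, cytotoxic effectors at -0.61, cholesterol synthesis at -0.025, Ccl3 at -0.63 and Ccl4 at -0.063. With the rule applied after thinning to 2000 UMIs, type 2 was at 0.24, type 17 at 0.18, follicular at -0.32, regulatory-associated genes at 0.31, cytotoxic effectors at -0.21, type I interferon at -0.22, Ccl3 at -0.84, Ccl4 at -0.14, Cxcl3 at -0.21 and Tff1 at -0.89. Thinning the selected cells to 2000 UMIs put type 1 at 0.18, type 2 at 0.22 and cholesterol synthesis at -0.32. The mean of single-cell CPM put costimulatory receptors at -0.078 and cholesterol synthesis at -0.036. With 50 or more UMIs, cytotoxic effectors were at 0.48 and cholesterol synthesis at -0.045.

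Leaving out cells with 3 or more UMIs of genes associated with regulatory T cells kept 24 and 11 cells, too few for most genes. The share ratios were then 0.28 and 0.53, and 93 and 195 genes were higher and lower. List medians were -0.62 for activation, -0.31 for immediate-early genes, -0.63 for costimulatory and 0.0071 for inhibitory receptors, -0.43 for cytokines, -0.69 for type 1, -2.46 for type 2, -0.44 for follicular genes, -0.30 for cytotoxic effectors, -0.49 for interferon gamma, -0.99 for interleukin receptors, 0.27 for chemokine receptors, -0.30 for survival, 0.069 for hypoxia, -0.35 for estrogen partners and -0.35 for TGF-beta. No median could be had for regulatory-associated genes and cholesterol synthesis, which had no measured gene. Ccl3 was at -1.10, Ccl4 at -1.72, Cd14 at -1.10, Cpeb2 at 0.0053, Gbp7 at 0.38, Iffo2 at 0.34, Il1b at -0.43, Med28 at -0.43, S100a8 at -1.72 and Tsnax at -2.15.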
